A study of Mus musculus with 70 samples.

Results

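The lungs of male Slc26a4 knockout mice that breathed air were compared with those of wildtype mice that breathed air, in 18 knockout and 17 wildtype libraries out of the 70 of the series. These are all air libraries, chosen by genotype and exposure label alone. The knockout groups held 6 mice at 1 day, 6 at 3 months and 6 at 9 months after exposure, and the wildtype groups held 6, 6 and 5 mice at those times. Knockout mice were homozygous (Pds-/-) and wildtype mice homozygous (Pds+/+) offspring of heterozygous 129S-Slc26a4tm1Erg/AjgJ parents, so both genotypes had the same 129S background and differed at the targeted allele. All were about 3 months old when they breathed air in a whole-body chamber for 6 hours a day on 4 days, and silica mice of the same study breathed silica at 15 mg/m3 on that schedule. The mice of the later times were therefore also older. Litter, cage and hour of death are not in the labels. Total RNA from a piece of lung was depleted of ribosomal RNA and sequenced, and reads were counted per gene.

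Slc26a4 encodes pendrin, a membrane exchanger that moves chloride, bicarbonate, iodide and thiocyanate. It is best known from the thyroid, the inner ear and the kidney, and its loss in people causes Pendred syndrome, with deafness and goitre. In the lung it sits in airway epithelium, where inflammatory cytokines raise it and where it supplies bicarbonate and thiocyanate to the surface liquid. Air lungs show what differed between the genotypes without particles, and the comparison is the baseline for the silica experiment.

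The libraries held 802478 to 5596316 counts, with a median of 2189893. Knockout libraries of 1 day were shallower than wildtype ones, at 802478 to 3313686 counts against 2257412 to 4851641. The tissue label was borne out by its markers: Sftpc, the surfactant protein of alveolar type 2 cells, was detected in every library, and the 15 alveolar type 2 markers summed to 16920 to 25710 counts scaled to library size (CPM) in knockout lungs and 15980 to 26500 in wildtype lungs. At 9 months 3 mice stood apart. Chil3, a chitinase-like protein of lung macrophages, reached 6553 and 2962 CPM in knockout mice 4 and 5 and 7970 CPM in wildtype mouse 5, against at most 1076 CPM in the other 32 mice. Values without these 3 mice are given for some results below, and not for every call that they change. Without them 1073 genes were called over all genes tested, against 695 with all mice. List counts without these 3 mice are therefore not to be set against the shares of all genes given below, which are those of the fit with all mice.

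The Slc26a4 gene spans bases 31519814 to 31560055 of chromosome 12 (build mm10). At 1 day its level ran from 0.980 to 3.23 CPM (median 1.56) in 6 knockout mice and from 4.21 to 12.5 CPM (median 8.20) in 6 wildtype mice. At 3 months it ran from 1.06 to 3.06 CPM (median 2.15) in 6 knockout mice and from 8.98 to 14.8 CPM (median 11.4) in 6 wildtype mice. Every knockout mouse was below every wildtype mouse at those times. At 9 months the 6 knockout mice had 1.32, 2.65, 2.94, 3.69, 16.6 and 51.5 CPM and the 5 wildtype mice had 6.41, 10.3, 16.6, 21.6 and 73.8 CPM, so the groups overlapped. The 2 high knockout values belonged to mice 4 and 5 and the high wildtype value to mouse 5, which are the mice with high Chil3. Knockout mouse 4 had more Slc26a4 than every wildtype mouse except 1, which was wildtype mouse 5. Whether the label of knockout mouse 4 is right was not tested, and no other measurement of its genotype was used. A count per gene does not separate exons, so which part of the gene the knockout reads came from was not tested.

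Differences are log2 fold changes of knockout over wildtype, and p-values were adjusted by Benjamini-Hochberg over all genes tested. With time as a block, Slc26a4 fell in knockout lungs by 1.58 on the log2 scale (standard error 0.36, adjusted p = 0.00712, edgeR quasi-likelihood test), and 16 of 18 knockout mice were below the wildtype median of their time. The log2 difference was -2.16 (SE 0.81) at 1 day, -2.45 (SE 0.73) at 3 months and -1.01 (SE 0.50) at 9 months, and none of these passed over all genes on its own (adjusted p of 0.308, 0.212 and 0.386). The test of a change of this difference with time gave an adjusted p of 0.997 (edgeR). Without the 3 mice the blocked difference was -2.36 (adjusted p = 5.26e-11), and without knockout 9-month mouse 4 alone it was -2.30.

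**Figure D1:**
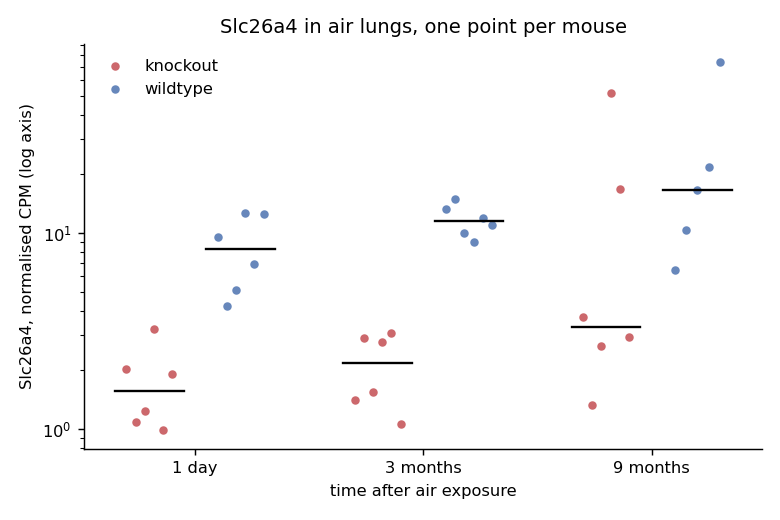
Slc26a4 in normalised CPM (log axis) in each air mouse, in columns for 1 day, 3 months and 9 months with knockout left of wildtype, with a line at each group's median. The groups are apart at 1 day and 3 months and overlap at 9 months, where knockout values reach 51.5 CPM and wildtype values 73.8 CPM.

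Beyond Slc26a4, knockout lungs differed from wildtype lungs in many genes by small amounts. Of 12919 genes tested, 695 (5.38%) passed an adjusted p of 0.05 with time as a block, 300 higher (2.32%) and 395 lower (3.06%) in knockout lungs. The median size among them was 0.27 on the log2 scale. Of the 695, 46 changed by 1.5-fold or more and 1 by 2-fold or more, which was Slc26a4. The direction was the same at all 3 times for 295 of the 300 higher and 393 of the 395 lower genes, each time being part of the blocked test. Leaving out single mice gave 511 (without knockout 1-day mouse 1) to 996 genes (without wildtype 9-month mouse 5), and without the 3 mice of 9 months 1073 genes passed, 652 of them among the 695.

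These calls followed the base composition of the transcripts. Genes higher in knockout lungs had a median GC content of 43.3% and genes lower in knockout lungs 56.6%, against 49.7% over all genes tested. Of the 755 genes under 40% GC, 10.1% were called higher and 0.265% lower. Of the 482 genes over 60% GC, 0.207% were called higher and 14.7% lower. The slope of expression on GC content, in log2 CPM per 10 points of GC relative to the mean library, averaged -0.0497 ± 0.0832 in 18 knockout libraries and 0.0527 ± 0.0532 in 17 wildtype libraries (SD). The lowest, -0.302, was that of the shallowest library, knockout 1-day mouse 3. When each library's own dependence on GC was taken out as an offset, an alternative added after the data were seen, 244 genes (1.89%) passed, 115 higher and 129 lower, and 204 of them were among the 695, which is 29.4% of the first list and 83.6% of the second. Below, values or adjusted p under GC offsets stand beside the genes that the results turn on.

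**Figure D2:**
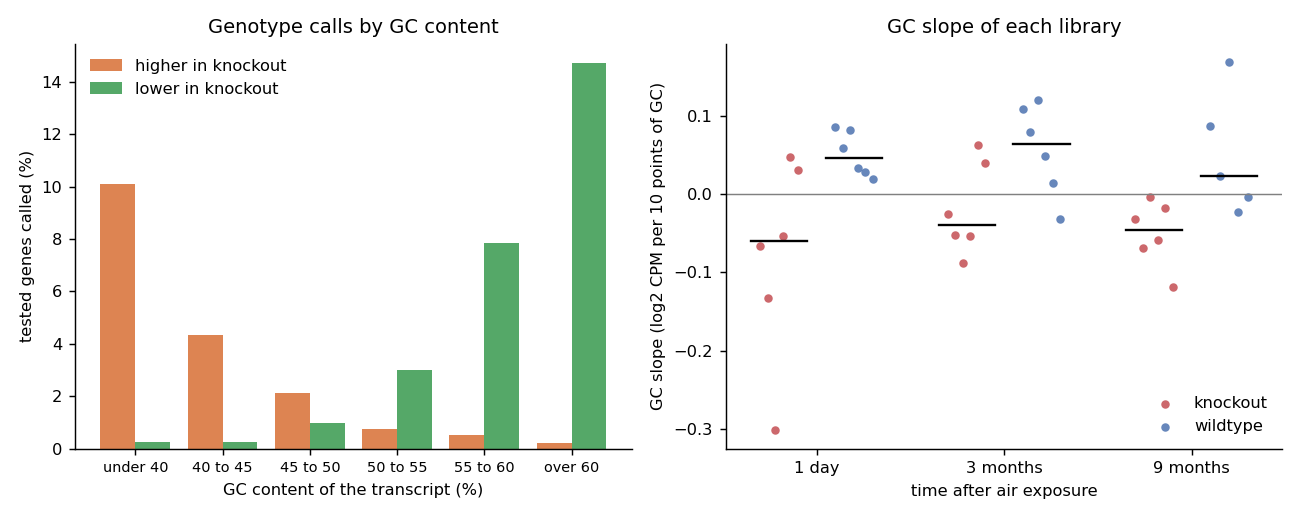
Left, the percent of tested genes called higher or lower in knockout air lungs, by GC content of the transcript. Right, the GC slope of each library (log2 CPM per 10 points of GC), knockout left of wildtype, with a line at each group's median. Calls higher in knockout lungs fall from 10.1% to 0.207% as GC content goes up and calls lower in knockout lungs climb from 0.265% to 14.7%.

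The share of counts on Lars2, a mitochondrial leucyl-tRNA synthetase gene, also moved with genotype, though unevenly over times and mice. Lars2 took 4.28% to 9.77% of counts (median 7.92%) in knockout libraries and 8.28% to 14.1% (median 9.96%) in wildtype libraries. At 1 day it was 5.27%, 4.92% and 4.28% in knockout mice 1, 2 and 3. In knockout mice 4, 5 and 6 it was 9.04%, 8.78% and 8.05%, against 8.28% to 11.5% in wildtype mice. The GC slopes of these 6 knockout libraries were -0.067, -0.133, -0.302, -0.053, 0.048 and 0.030 in the same order. At 3 months the median Lars2 share was 9.15% in knockout and 9.34% in wildtype libraries. Whether reads counted on Lars2 came from its own transcript was not tested. Its blocked log2 difference was -0.51 (SE 0.10, adjusted p = 0.00317), with -0.59 at 1 day, -0.08 at 3 months and -0.88 at 9 months. With the Lars2 share as a covariate 62 genes passed in place of 695. GC dependence, depth and the Lars2 share all moved with genotype, so their part in a call cannot be told apart from that of genotype beyond the values given with each.

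The number of genes that passed at a single time depended on how the times were fitted. One model of all 6 groups gave 0 genes at 1 day, 5 at 3 months and 26 at 9 months, while each time fitted alone gave 125, 68 and 0 at those times, so no order of the times can be read from these counts. In the 6-group model none passed at 1 day (0%) by edgeR, where 1334 genes had an unadjusted p under 0.05, while DESeq2 called 17 and voom with quality weights 207. At 3 months 5 genes passed (0.0387%). Ndnf, a secreted neurotrophic factor (0.60, SE 0.11), Nt5e, the ectoenzyme CD73 that makes adenosine (0.50, SE 0.09), Rtn1, a reticulon of the endoplasmic reticulum (1.12, SE 0.22), and Gpr174, a receptor of lymphocytes for lysophosphatidylserine (1.12, SE 0.22), rose, and Baiap2, an adaptor of the actin skeleton, fell (-0.45, SE 0.09). At 9 months 26 passed (0.201%), 4 higher and 22 lower, 16 of them also in the blocked comparison. These 26 became 3 with GC offsets, 0 with the GC slope as a covariate and 0 with 9 months fitted alone, so the values at 9 months below hold for the 6-group model.

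The genes lower at 9 months included Scgb1a1, the main secretory protein of club cells. Its level at 9 months was 6313, 8001, 10080, 11130, 12190 and 12760 CPM in 6 knockout mice, against 12390, 12390, 14710, 16540 and 18070 CPM in 5 wildtype mice. The highest knockout value was above the 2 lowest wildtype values, and the groups were otherwise apart. Its log2 difference was -0.56 (SE 0.12, adjusted p = 0.0425) at 9 months, -0.22 at 3 months and -0.01 at 1 day. Lars2 (-0.88, SE 0.16), Phf2, a histone demethylase (-0.45, SE 0.09), Pcbp2, an RNA-binding protein (-0.44, SE 0.09), and Itfg3 (-0.52, SE 0.11) had the smallest p among the lower genes beside the microRNA gene Mir6236 (-1.29, SE 0.26). The source of the reads counted on Lars2 and Mir6236 was not tested. Chia1, acidic chitinase, was higher at 9 months by 1.31 (SE 0.29, adjusted p = 0.0389), with blocked values of 0.43 (adjusted p = 0.171) in all mice and 0.09 without the 3 mice with high Chil3. Acsl4, which activates arachidonic acid, and Anxa1, a calcium-dependent anti-inflammatory protein, were higher at 9 months by 0.52 (SE 0.12) and 0.45 (SE 0.10), and Tmem243 by 0.56 (SE 0.11).

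The counts at single times moved with single mice. At 9 months they came to 262 without wildtype mouse 5, 151, 49 and 45 without knockout mice 1, 3 and 4, and 8, 5, 0 and 0 without wildtype mice 4, 2, 3 and 1, and to 0 without knockout mouse 5 or 6. At 3 months they came to 21 without wildtype mouse 1, 11 without knockout mouse 4, 3 and 1 without knockout mice 5 and 6, and 0 without wildtype mouse 4 or 5 or knockout mouse 1, 2 or 3. At 1 day they came to 25 without knockout mouse 4, to 22, 8 and 7 without knockout 9-month mice 5, 1 and 4, to 16, 9 and 1 without wildtype 9-month mice 5, 2 and 1, and to 1 without knockout 3-month mouse 5.

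Whether the genotype difference itself changed with time was tested for each gene. No gene passed (0%) by edgeR, DESeq2 or voom, and 624 genes had an unadjusted p under 0.05. The smallest unadjusted p belonged to the small nuclear RNA gene Scarna2, with log2 differences of -1.01, 0.07 and 0.72 at the 3 times, then to Garnl3 (0.53, -0.42 and 0.03) and 2410016O06Rik (-0.55, 0.20 and 0.44), all 3 with an adjusted p of 0.997. A gene that passed at 1 time and not at another is thus not shown to differ between times.

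The 15 genes higher in knockout lungs with the smallest p ran from 0.19 to 0.95 on the log2 scale, and 14 of them also passed with GC offsets. In whole lung, more cells of a type and more RNA per cell cannot be told apart. St8sia4, a sialyltransferase that makes polysialic acid (chromosome 1, 95587682 to 95667717), averaged 68.6 ± 10.8 CPM in 18 knockout mice and 48.9 ± 7.36 CPM in 17 wildtype mice (SD). Its blocked difference was 0.49 (SE 0.07, adjusted p = 0.000178), with 0.42, 0.55 and 0.53 at the 3 times in order, and 0.37 with GC offsets (adjusted p = 0.0105).

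Il18rap, the accessory chain of the interleukin 18 receptor on natural killer and T cells (chromosome 1, 40515362 to 40551707), ran at 1 day from 11.1 to 18.1 CPM (median 16.0) in knockout mice and from 8.94 to 10.4 CPM (median 9.64) in wildtype mice. At 3 months it ran from 12.9 to 20.6 CPM (median 15.1) in knockout mice and from 6.45 to 15.0 CPM (median 9.39) in wildtype mice. At 9 months it ran from 14.1 to 33.1 CPM (median 17.6) in knockout mice and was 10.4, 11.6, 12.1, 12.5 and 13.9 CPM in wildtype mice. The groups were apart at 1 day and 9 months and overlapped at 3 months, and all 18 knockout mice were above the wildtype median of their time. The blocked difference was 0.70 (SE 0.11, adjusted p = 0.000204), near 0.70, 0.67 and 0.74 at the 3 times and 0.66 with GC offsets (adjusted p = 0.00178).

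Gpr174 (0.80, SE 0.13) was 0.93, 1.12 and 0.32 at the 3 times. Btla, an inhibitory receptor of lymphocytes (0.64, SE 0.12), Gbp2b (0.32, SE 0.06) and Iigp1 (0.75, SE 0.14), which are guanosine triphosphatases induced by interferon, Samd9l, an interferon-induced antiviral factor (0.27, SE 0.05), Pygl, liver-type glycogen phosphorylase (0.40, SE 0.07), and Slc39a8, a zinc and manganese importer (0.26, SE 0.05), rose with and without GC offsets. Mme, the peptidase neprilysin, rose by 0.19 (SE 0.03, adjusted p = 0.00165) and had 0.08 with GC offsets (adjusted p = 0.175).

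The monocyte list had 2 of 14 tested members higher, against 2.32% of all genes, and none lower, both of them chemokine receptors. The list's median was 0.18, with 0.06, -0.02 and 0.24 at the 3 times and -0.01 without the 3 mice of 9 months. Ccr2, which brings monocytes out of the blood (chromosome 9, 124101918 to 124109140), ran at 1 day from 58.2 to 80.1 CPM in knockout mice and from 36.7 to 51.8 CPM in wildtype mice. At 3 months it ran from 46.9 to 87.0 CPM in knockout mice and from 25.1 to 58.9 CPM in wildtype mice. At 9 months it ran from 55.7 to 171 CPM in knockout mice and was 38.2, 54.7, 59.7, 62.6 and 81.2 CPM in wildtype mice. The groups were apart at 1 day only, and the highest values at 9 months were those of knockout mice 4, 6 and 5. The blocked difference was 0.67 (SE 0.12, adjusted p = 0.00102), or 0.57 with GC offsets (adjusted p = 0.0102). Cx3cr1, the fractalkine receptor, rose by 0.46 (SE 0.12, adjusted p = 0.0170), with 0.58, 0.83 and -0.05 at the 3 times and adjusted p = 0.0319 with GC offsets. Ms4a4c and Ms4a6c, membrane proteins of myeloid cells from a cluster of near-identical genes whose reads the counting could split, rose by 0.95 (SE 0.18) and 0.58 (SE 0.11).

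Of 9 tested neutrophil markers, 2 rose, against 2.32% of all genes, and all 9 had positive differences (median 0.26, against 0.01 over all genes). S100a9, a subunit of calprotectin (chromosome 3, 90692630 to 90695721), ran from 16.1 to 30.3 CPM in knockout mice and from 8.98 to 16.2 CPM in wildtype mice at 1 day. At 3 months it ran from 14.4 to 31.0 CPM in knockout mice and from 3.55 to 25.9 CPM in wildtype mice. At 9 months it was 20.2, 31.8, 35.1, 57.4, 87.2 and 138 CPM in knockout mice and 16.2, 27.4, 29.2, 33.1 and 33.2 CPM in wildtype mice. The groups overlapped at every time, by little at 1 day, and 3 knockout mice of 9 months lay above all others. The blocked difference was 0.96 (SE 0.19, adjusted p = 0.00330), 1.03, 0.70 and 1.12 at the 3 times, and 0.91 with GC offsets (adjusted p = 0.0108). S100a8, its partner, rose by 0.87 (SE 0.20, adjusted p = 0.00821), or 0.82 with GC offsets. Retnlg (0.71, adjusted p = 0.115) and Csf3r, the receptor of granulocyte colony-stimulating factor (0.21, adjusted p = 0.399), did not pass. The 12 counted markers summed to 87.4 to 426 CPM (median 130) in knockout lungs and 39.2 to 186 CPM (median 101) in wildtype lungs, and Camp was at 0 in 12 knockout and 12 wildtype libraries.

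Of 13 B cell and plasma cell genes 3 rose, against 2.32% of all genes, and the list's median difference was 0.45 at 1 day, 0.56 at 3 months and -0.09 at 9 months. Fcer2a, the low-affinity immunoglobulin E receptor CD23, rose by 0.82 (SE 0.21, adjusted p = 0.0176; adjusted p = 0.0312 with GC offsets), Ms4a1, which encodes CD20, by 0.48 (SE 0.13) and Cr2, a complement receptor, by 0.34 (SE 0.11). At the 3 times Fcer2a had 0.99, 0.65 and 0.81, Ms4a1 0.42, 0.72 and 0.31, and Cr2 0.45, 0.43 and 0.09. Ms4a1 and Cr2 had adjusted p of 0.127 and 0.218 with GC offsets, and Cr2 lost its call without any 1 of 25 mice, while Jchain, of secreted immunoglobulins, had -0.43 (adjusted p = 0.471). Fcer2a ran from 2.76 to 24.6 CPM (median 8.59) in knockout mice and from 0.322 to 9.15 CPM (median 4.62) in wildtype mice, so the groups overlapped widely. Of 13 T and natural killer cell genes 3 rose, against the same 2.32%: Il7r (0.35, SE 0.09), Gzma, a granzyme of killer cells (0.79, SE 0.21), and Ncr1, the receptor NKp46 (0.76, SE 0.22), none of which passed with GC offsets. Ncr1 lost its call without any 1 of 8 mice. Gzma had adjusted p = 0.0655 without knockout 1-day mouse 1. Of the 13 genes tested, 12 had positive differences. The list's median was 0.38 with time as a block and 0.36, 0.31 and 0.31 at the 3 times. Cd3e (-0.07) and Cd3g (0.05), CD3 chains of the T cell receptor complex, did not pass. These 18 markers summed to 99.7 to 204 CPM (median 140) in knockout lungs and 89.0 to 131 CPM (median 121) in wildtype lungs.

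Antigen presentation by MHC class I showed 3 of 13 members higher, against 2.32% of all genes, and none lower, with a median of 0.27. H2-K1 (chromosome 17, 33996012 to 34000619) ran at 3 months from 410 to 443 CPM in knockout mice and from 338 to 407 CPM in wildtype mice, which did not overlap, while the groups overlapped at 1 day and at 9 months. Its blocked difference was 0.30 (SE 0.09, adjusted p = 0.0358). H2-Q4 rose by 0.44 (SE 0.11, adjusted p = 0.00993) and Tap1, which carries peptides to class I molecules, by 0.30 (SE 0.09, adjusted p = 0.0498). All 3 also passed with GC offsets (adjusted p of 0.0314, 0.0108 and 0.0278), under which 4 members passed. Class I genes are near-identical to each other, so reads may be split between them, and H2-K1 lost its call without any 1 of 9 mice and Tap1 without any 1 of 25. The 11 MHC class II genes all had positive differences (median 0.24) and none passed, while 2 were called higher without the 3 mice of 9 months. Of 15 inflammasome and interleukin 1 genes 3 rose, against that same share, Il1r1 (0.25, SE 0.06), Aim2 (0.44, SE 0.13) and Mefv (0.57, SE 0.17), none of which passed with GC offsets, and Aim2 and Mefv lost their calls without any 1 of 14 and 15 mice.

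Alveolar macrophage genes gave no call in 15, with a median of 0.00, and neither did CXC or CC chemokines (7 and 4 tested) or acute phase genes (10 tested). Without the 3 mice of 9 months, 1 gene was called higher in each of the alveolar macrophage, CXC and acute phase lists. Of 18 genes of cholesterol and fatty acid synthesis 3 rose, against 2.32% of all genes. Hmgcs1, which condenses acetyl units to the first sterol precursor, averaged 152 ± 30.0 CPM in 18 knockout mice and 120 ± 15.1 CPM in 17 wildtype mice, a difference of 0.34 (SE 0.07, adjusted p = 0.00536) with 0.10, 0.44 and 0.50 at the 3 times. Sqle, squalene epoxidase (0.29, SE 0.08), passed with GC offsets too and Cyp51 (0.30, SE 0.09) did not, and Cyp51 lost its call without any 1 of 26 mice.

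**Figure D3:**
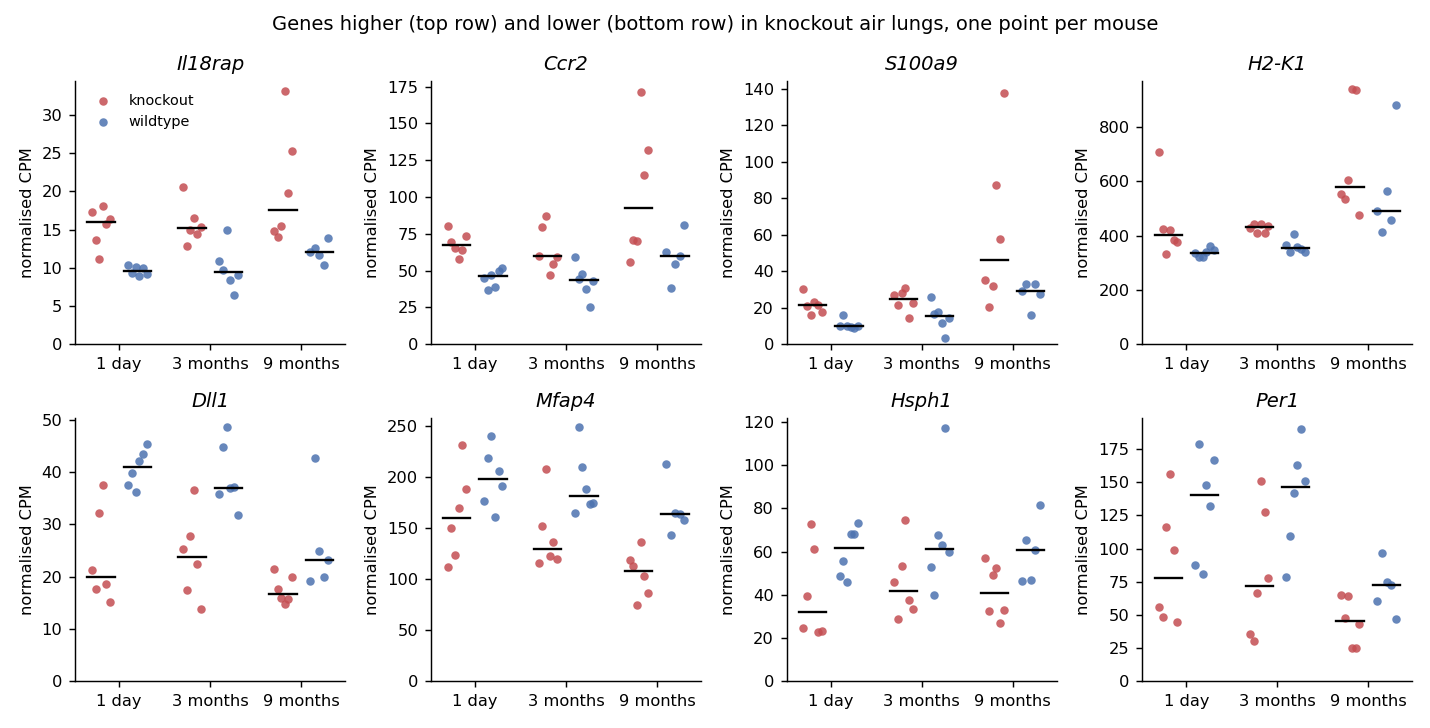
Normalised CPM of 8 genes in each air mouse, knockout left of wildtype at each time, with a line at each group's median. Il18rap, Ccr2, S100a9 and H2-K1 are higher and Dll1, Mfap4, Hsph1 and Per1 lower in knockout lungs with time as a block. Single mice stand out, such as knockout 9-month mice with 138 CPM of S100a9 and 171 CPM of Ccr2.

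Among genes lower in knockout lungs, Dll1 had the smallest p and, after Slc26a4 and Hspa1a, the next largest fall. Dll1 is a Notch ligand (chromosome 17, 15367354 to 15376932). At 1 day it ran from 15.2 to 37.5 CPM (median 20.0) in knockout mice and from 36.2 to 45.4 CPM (median 41.0) in wildtype mice. At 3 months it ran from 13.8 to 36.5 CPM (median 23.8) in knockout mice and from 31.8 to 48.7 CPM (median 37.0) in wildtype mice. At 9 months it ran from 14.8 to 21.4 CPM (median 16.7) in knockout mice and was 19.2, 19.9, 23.2, 24.9 and 42.7 CPM in wildtype mice. The ranges met at each time, yet all 18 knockout mice were below the wildtype median of their time. The blocked difference was -0.74 (SE 0.11, adjusted p = 0.000178), with -0.85, -0.76 and -0.55 at the 3 times and -0.69 with GC offsets (adjusted p = 0.00178).

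All 15 lower genes with the smallest p, which ran from -0.74 to -0.20, also passed with GC offsets. They included Sorbs3, the adaptor vinexin (-0.42, SE 0.07), Smtn, smoothelin of contractile smooth muscle (-0.36, SE 0.07), and the scaffolds Caskin2 (-0.39, SE 0.06) and Shank3 (-0.44, SE 0.08). Smtn was the 1 gene of 16 in the smooth muscle and pericyte list to pass, a share near the 5.38% over all genes (3.06% lower). In this list 15 of 16 differences were negative (median -0.13), and 4 genes were called lower without the 3 mice of 9 months. Mfap4, a protein of elastic fibres (chromosome 11, 61485431 to 61488708), was the 1 gene of 20 in the extracellular matrix list to pass, also near the 5.38% share. Without the 3 mice of 9 months 3 genes of the matrix list were called lower. At 9 months Mfap4 ran from 74.7 to 136 CPM in 6 knockout mice and from 142 to 212 CPM in 5 wildtype mice, with no overlap. Its ranges overlapped at 1 day and 3 months. Its differences were -0.29, -0.45 and -0.67 at the 3 times and -0.46 over all (SE 0.09, adjusted p = 0.00259). Alas1, the first enzyme of haem synthesis, fell by 0.35 on the log2 scale (SE 0.06, adjusted p = 0.00141), and Mknk2, a kinase of the translation factor eIF4E, by 0.31 (SE 0.05).

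Both casein kinases that phosphorylate the PERIOD clock proteins, Csnk1d (-0.24, SE 0.04) and Csnk1e (-0.27, SE 0.05), were among these 15 genes. Csnk1e at 3 months ran from 65.9 to 85.5 CPM in knockout mice and from 90.0 to 95.0 CPM in wildtype mice, with no overlap, and the same held for Csnk1d, at 94.2 to 121 CPM in knockout mice and 124 to 135 CPM in wildtype mice. At 1 day and at 9 months the ranges overlapped for both genes. In the circadian list 2 of 19 members passed, both lower, against 3.06% of all genes: Per1 by 0.71 on the log2 scale (SE 0.18, adjusted p = 0.0143) and Per2 by 0.53 (SE 0.16, adjusted p = 0.0424), with adjusted p of 0.0591 and 0.108 under GC offsets, and Per2 lost its call without any 1 of 16 mice. The clock genes that peak at other hours, Arntl (-0.13), Nr1d1 (0.08) and Dbp (0.06), did not pass.

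Per1 is also raised by glucocorticoids, and the list of genes that respond to them had 3 of 15 members lower, against 3.06% of all genes, and none higher, with a median of -0.36. That median was -0.14 at 1 day, -0.76 at 3 months and -0.06 at 9 months. Tsc22d3, the leucine zipper GILZ, fell by 0.56 on the log2 scale (SE 0.15, adjusted p = 0.0220) and Cdkn1a, the cell cycle inhibitor p21, by 0.55 (SE 0.13, adjusted p = 0.00751), and both passed with GC offsets (adjusted p of 0.0362 and 0.0312). Fkbp5 (-0.36, adjusted p = 0.323) and Zbtb16 (-0.48, adjusted p = 0.324), 2 other genes that respond strongly, did not pass. Tsc22d3 ran from 72.0 to 283 CPM (median 123) in knockout mice and from 105 to 363 CPM (median 172) in wildtype mice. Within a time the mice spread widely and the same mice were high for several of these genes. One knockout mouse, number 4, had the highest Per1, Tsc22d3 and Cdkn1a of the knockout mice at 1 day (156, 283 and 45.2 CPM), and another, also numbered 4, at 3 months (151, 274 and 50.3 CPM). These levels lie within the wildtype ranges of those times. Immediate early genes had 4 of 18 members lower, against that same 3.06%: Nr4a2 (-0.73, SE 0.20), Nr4a3 (-0.71, SE 0.20), Jun (-0.21, SE 0.06) and Jund (-0.19, SE 0.05), of which only Nr4a2 passed with GC offsets, where Jund had -0.02. Fos (-0.13) and Egr1 (-0.26) did not pass. The hour at which each mouse died is not in the labels, and its part in the clock, glucocorticoid and immediate early genes was not tested.

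Of 15 heat shock and unfolded protein genes, 4 were lower in knockout lungs, against 3.06% of all genes, and none higher, with a median of -0.25. Without the 3 mice of 9 months 7 of them were called lower, in a fit that called 1073 genes over all in place of 695. Hsph1, a cochaperone of HSP70 (chromosome 5, 149616843 to 149636498), ran at 1 day from 22.5 to 72.9 CPM (median 32.0) in knockout mice and from 45.9 to 73.3 CPM (median 61.8) in wildtype mice. At 3 months it ran from 28.7 to 74.4 CPM (median 41.8) in knockout mice and from 39.8 to 117 CPM (median 61.3) in wildtype mice. At 9 months it ran from 26.9 to 57.2 CPM (median 41.0) in knockout mice and was 46.3, 46.9, 60.6, 65.5 and 81.7 CPM in wildtype mice. The ranges overlapped at every time, and 16 of 18 knockout mice were below the wildtype median. Hsph1 fell by 0.59 on the log2 scale (SE 0.14, adjusted p = 0.0111), or by 0.61 with GC offsets (adjusted p = 0.0154), and the constitutive chaperone Hspa8 by 0.36 (SE 0.09, adjusted p = 0.0146), or by 0.40 with GC offsets (adjusted p = 0.0123).

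The small heat shock protein Hspb1 (-0.49, SE 0.13) and the inducible HSP70 gene Hspa1a (-0.89, SE 0.26) passed without GC offsets and not with them (adjusted p of 0.153 and 0.112), and Hspa1a lost its call without any 1 of 12 mice. Hspa1a and its neighbour Hspa1b (-0.75, adjusted p = 0.0602) are near-identical, so the counting could split their reads. The chaperones of the endoplasmic reticulum in the list, Hspa5 (-0.09) and Hsp90b1 (0.06), did not pass. Cirbp, an RNA-binding protein induced by mild cold and here chosen after its value was seen, was higher in knockout lungs. It averaged 55 ± 8.71 CPM in 18 knockout mice and 43.9 ± 7.71 CPM in 17 wildtype mice, with 0.24, 0.40 and 0.40 at the 3 times and 0.34 over all (SE 0.07, adjusted p = 0.00536; adjusted p = 0.0102 with GC offsets).

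Heat shock factor 1 turns on heat shock genes such as Hspa1a through inverted repeats of the unit GAA, while other members of the list, among them Hspa5, Ddit3 and Xbp1, belong to the unfolded protein response. The 250 bases before the start were searched first for runs of 3 units (GAANNTTCNNGAA or TTCNNGAANNTTC, both strands), which were found in 0 of 13 genes of the heat shock list with a promoter entry and in 0.44% of tested genes. Because that search had no match in the list, the shorter pair of units (GAANNTTC or TTCNNGAA, each the same on both strands and contained in the longer form) was tried after it. A pair was found in 4 of the 13 genes (30.8%), which were Hspa1a, Hspa1b, Hsph1 and Hspb1, in 13.1% of genes called lower, in 10.7% of genes called higher and in 12.3% of tested genes, so genes called lower held it about as often as all genes tested. The list was not tested for more matches than other genes. These are counts of letters and say nothing of binding. The upstream bases of 3 genes that fell are shown because they hold a pair, from RefSeq (GRCm38.p6), on the minus strand at chr17:34972201-34972300 (Hspa1a) and chr5:149636337-149636409 (Hsph1) and on the plus strand at chr5:135887762-135887868 (Hspb1), with the matches in capitals.
Hspa1a: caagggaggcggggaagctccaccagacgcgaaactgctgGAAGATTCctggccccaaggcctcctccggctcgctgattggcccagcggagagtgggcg
Hsph1: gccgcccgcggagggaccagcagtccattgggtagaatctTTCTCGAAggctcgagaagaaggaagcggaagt
Hspb1: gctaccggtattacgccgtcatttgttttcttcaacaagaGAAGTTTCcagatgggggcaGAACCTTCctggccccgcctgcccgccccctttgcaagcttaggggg
The stretch upstream of Hspa1b holds the same 100 bases as that of Hspa1a.

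Against 3.06% of all genes called lower, 2 of 11 club cell genes were lower with time as a block. Scgb1a1 (-0.25, SE 0.08, adjusted p = 0.0401) and Chad (-0.55, SE 0.13, adjusted p = 0.00712) were these 2, and Scgb1a1 did not pass with GC offsets (adjusted p = 0.0760) or without any 1 of 11 mice. Ciliated cell genes gave no call in 16 and alveolar type 1 genes none in 13. Without the 3 mice of 9 months, 1 ciliated gene was called higher and 1 alveolar type 1 gene lower. Of 15 alveolar type 2 genes 1 rose, against 2.32% of all genes, which was Lamp3 (0.25, SE 0.06, with 0.15 and adjusted p = 0.154 under GC offsets). Without those 3 mice 5 of these 15 genes were called higher, in a fit that called 1073 genes over all in place of 695. Heart muscle genes, which mark the sleeve of the pulmonary vein, had 2 of 17 lower, against 3.06% of all genes, Actc1 (-0.49, SE 0.13) and Hspb7 (-0.61, SE 0.17), neither with GC offsets, and 16 of 17 negative differences. Their 18 markers summed to 437 to 2174 CPM (median 1426) in knockout lungs and 702 to 3361 CPM (median 1573) in wildtype lungs, and the part of this spread in the calls was not tested. Hspb7 had adjusted p = 0.0544 without knockout 1-day mouse 2.

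Of 12 anion transport genes tested, 2 passed, against 5.38% of all genes: Slc26a4, the targeted gene that defines the groups, and Slc12a2. Slc12a2, the cotransporter that loads epithelial cells with chloride, rose by 0.21 (SE 0.04, adjusted p = 0.00428; adjusted p = 0.0390 with GC offsets), with 0.14, 0.19 and 0.30 at the 3 times. It ran at 9 months from 237 to 296 CPM in knockout mice and from 196 to 231 CPM in wildtype mice, with no overlap. At 1 day and 3 months its ranges overlapped. Cftr, the chloride channel of cystic fibrosis (0.17, adjusted p = 0.131), Ano1 (0.08) and the relatives Slc26a9 (-0.07), Slc26a6 (-0.01), Slc26a2 (0.01) and Slc26a11 (-0.07) did not pass. Of 11 sodium transport genes 1 passed, against the same 5.38%, Scnn1a of the epithelial sodium channel (-0.26, SE 0.07, adjusted p = 0.0262; adjusted p = 0.133 with GC offsets), and it had adjusted p = 0.0532 without wildtype 9-month mouse 3. Pendrin also carries iodide and thiocyanate: of 6 oxidant enzyme genes and 11 thyroid hormone response genes tested, none passed. Without the 3 mice of 9 months, 1 oxidant enzyme gene was called higher and 2 thyroid hormone response genes lower.

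**Figure D4:**
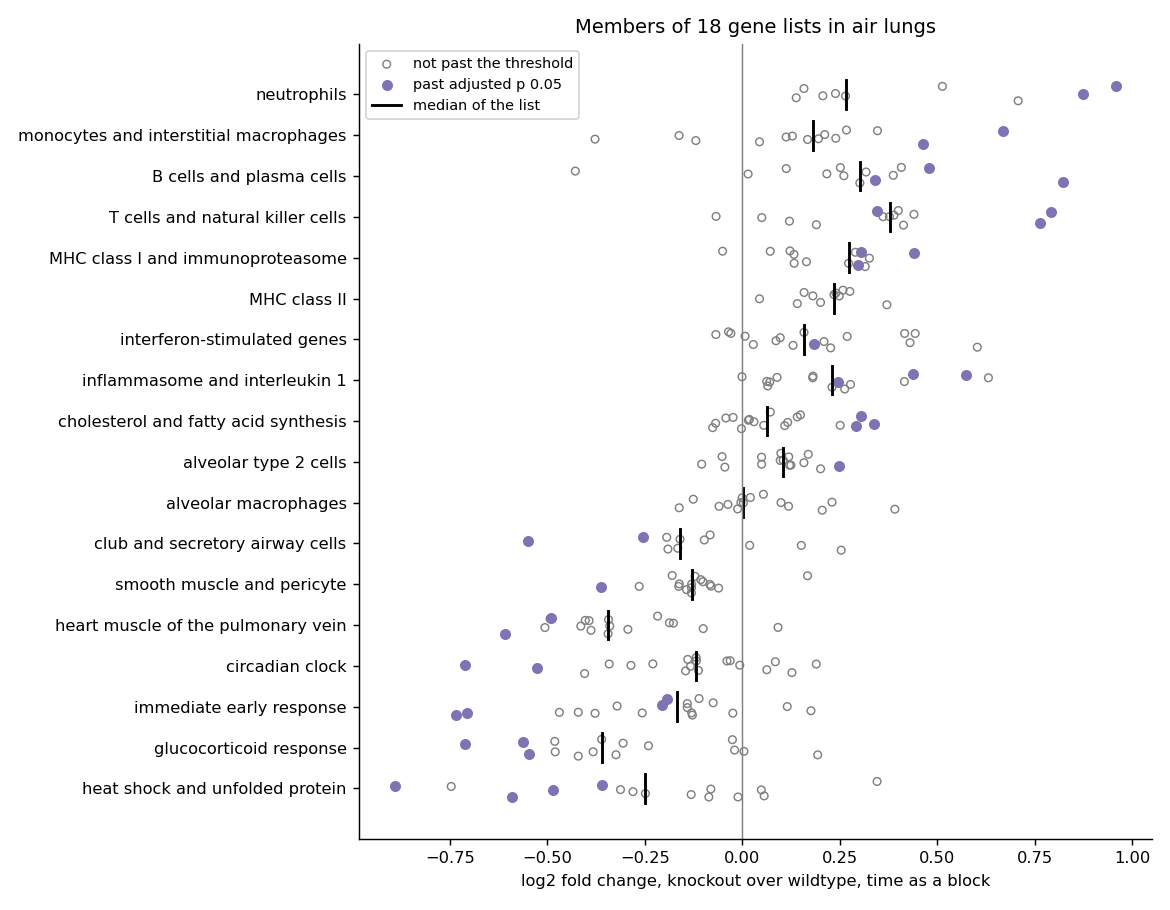
Log2 fold changes, knockout over wildtype with time as a block, of the tested members of 18 gene lists. Filled points passed an adjusted p of 0.05, open points did not, and bars are list medians. Immune lists lie to the right of 0, from medians of 0.16 to 0.38 apart from alveolar macrophages at 0.00, and heat shock, glucocorticoid, immediate early, clock and heart muscle lists lie to the left. The monocyte median of 0.18 was -0.01 without the 3 mice of 9 months.

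Genes beside Slc26a4 are inherited together with the targeted allele, and whether their sequence differs between the genotypes was not tested. Of 36 other tested genes within 5 Mb, 3 were called (8.33%, against 5.38% over all genes): Ahr, the aryl hydrocarbon receptor (0.24, SE 0.06), Ankmy2 (0.30, SE 0.07) and Pik3cg, a lipid kinase of leukocytes (0.29, SE 0.09), all higher in knockout lungs. Within 20 Mb 6 of 85 were called (7.06%). None passed with GC offsets, and Pik3cg lost its call without any 1 of 20 mice. The count within 5 Mb ran from 2 to 5 when 1 mouse was left out, and was 5 without wildtype 9-month mouse 5 or without knockout 9-month mouse 1 or 3.

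Silica lungs of the same study are separate mice, 18 knockout and 17 wildtype, and the same fit there called 1 of 12985 genes (0.0077%), which was Slc26a4 (-2.05). Of the 300 genes higher in air, 221 of 296 tested after silica had a positive difference there, with a median of 0.05 against 0.28 in air. Of the 395 lower in air, 280 had a negative difference after silica, with a median of -0.04 against -0.26 in air. The medians in air are those that chose the genes. Over all tested genes 7280 of 12806 had the same sign in both. The difference between air and silica in the genotype effect passed for no gene of 13252 (0% by edgeR, smallest adjusted p 0.162, with 1299 genes at an unadjusted p under 0.05), so the genotype effect in air is not shown to differ from that after silica. S100a9 had 0.59 after silica (adjusted p = 0.432), Fcer2a 0.41, Hsph1 -0.32 and Dll1 -0.22 (adjusted p = 0.723). Other named genes had the opposite sign after silica, among them Smtn (0.18), Mfap4 (0.09), Ipcef1 (-0.08) and Gpr174 (-0.01). Of 95 named genes called in air and compared, 73 had the same sign in both.

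**Figure D5:**
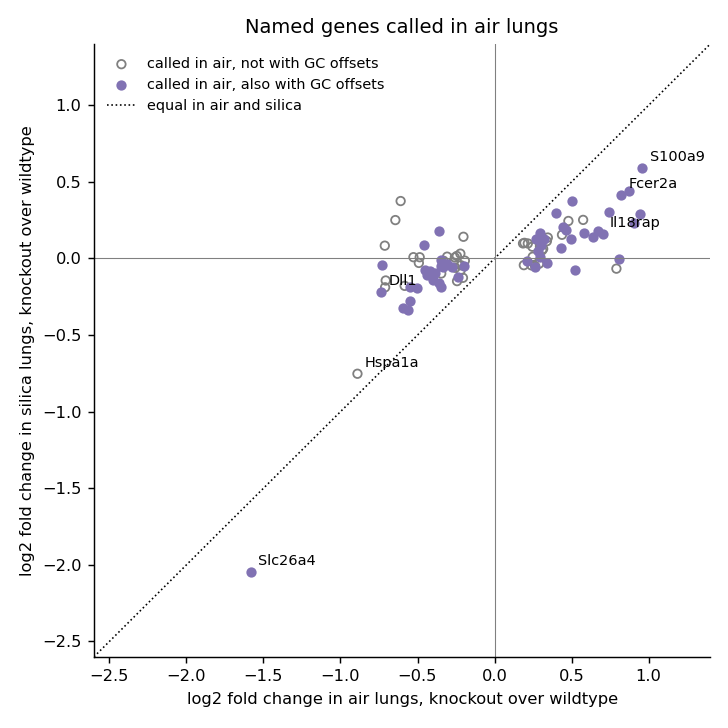
Log2 fold change of knockout over wildtype in air lungs (x axis) and in silica lungs (y axis) for 95 named genes called in air, filled where the call also held with GC offsets. Of these genes 73 have the same sign in both and 94 lie nearer to 0 after silica, Slc26a4 being the exception. The genes were chosen for their values in air.

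Of 99 named genes called with time as a block, 18 passed the threshold under every one of the 51 other settings tried, which changed the scaling, the test, the filter, the libraries or the covariates. Of these settings 35 left out a single mouse each and so shared most of their libraries. The 10 higher genes were St8sia4, Il18rap, Gpr174, Ccr2, Fcer2a, Pygl, Ipcef1, Ms4a4c, Ms4a6c and H2-Q4. Among them Fcer2a, Ms4a4c and H2-Q4 passed only narrowly in their weakest setting. The 8 lower ones were Dll1, Sorbs3, Caskin2, Csnk1d, Alas1, Banp, Hspa8 and Npr3, the last a clearance receptor for natriuretic peptides that averaged 149 ± 47.1 CPM in 18 knockout mice and 231 ± 89.0 CPM in 17 wildtype mice (-0.61, SE 0.13, adjusted p = 0.00424). Npr3 was chosen after its value was seen.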

How the data were processed

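Lung RNA of 35 air mice was analysed, 18 knockout and 17 wildtype, with 35 silica libraries for 1 comparison. The authors deposited raw read counts per gene and library. The submitters' processing notes name bcl2fastq 2.19, Trimmomatic 0.35, HISAT2 2.1.0, Cufflinks, SAMtools 1.8, HTSeq 0.11.2 and mm10, without their roles; libraries were TruSeq Stranded Total RNA, per the labels' protocols. The annotation and the strand setting of the counting are not given in the sources used here, so reads of overlapping genes may be shared.

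Of 24439 lines, 19 repeats were dropped. The 12919 genes that passed filterByExpr were scaled by TMM and fitted with edgeR 4.0.16 in R 4.3.3 (quasi-likelihood, Benjamini-Hochberg, threshold 0.05). The genotype effect was fitted with time as a block, at each time in a model of 6 groups, and as a genotype by time test. Alternatives used DESeq2 1.42.0, limma 3.58.1 (voom) and sva 3.50.0. GC content came from GENCODE transcripts and entered by lowess per library. CPM values are TMM-normalised.

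Libraries are separate mice per the labels. Pairs of libraries within a group differed by more than counting error (chi-square per degree of freedom 1.47 to 13.3), so none was taken as a repeat. Named genes were the targeted gene, the 15 smallest p in each direction, the 5 largest changes in each direction, the 5 smallest p in each direction at each time (the 3 smallest p where none passed, also for the genotype by time test), up to 4 called members of each of 50 gene lists and called genes within 5 Mb of Slc26a4, with key genes outside this rule said to be chosen after their values were seen. The members and lists were chosen with earlier results of these data known. The fits were tested on simulated data. Results for 2 named genes are not reported here.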

Additional observations from a re-analysis of the deposited data

Results flagged for a closer look

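In 186 groups of values examined, 21 held a mouse whose gap to the others was large for the range of its group, where chance gives about 1 in 20. Of Slc26a4 these were knockout 9-month mouse 4 at 51.5 CPM and wildtype 9-month mouse 5 at 73.8 CPM. Among immune genes, Fcer2a was 24.6 CPM in knockout 9-month mouse 4, Iigp1 was 38.9 CPM in knockout 1-day mouse 1, and S100a9 was 16.2 CPM in wildtype 1-day mouse 2. Gzma was 30.9 CPM in knockout 3-month mouse 1 and, as the lowest of its group, 1.58 CPM in wildtype 3-month mouse 4. H2-K1 was 708 CPM in knockout 1-day mouse 1 and 407 CPM in wildtype 3-month mouse 3.

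Hmgcs1 was 172 CPM in knockout 1-day mouse 4, 134 CPM in wildtype 3-month mouse 2 and 148 CPM in wildtype 9-month mouse 5. Cdkn1a was 45.2 CPM in knockout 1-day mouse 4 and 50.3 CPM in knockout 3-month mouse 4. Hspa8 was 919 CPM and Hsph1 117 CPM in wildtype 3-month mouse 5. Dll1 was 42.7 CPM in wildtype 9-month mouse 2, and Scgb1a1 was 12060 CPM in wildtype 1-day mouse 1. Csnk1d was lowest at 106 CPM in wildtype 9-month mouse 3, and Csnk1e at 56.1 CPM in wildtype 9-month mouse 5. The deepest library, wildtype 3-month mouse 2, held 5596316 counts. No cause of these values was tested.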

How the results depend on the processing

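No paired analysis was possible because the labels carry animal numbers and no replicate number shared between genotypes. The 695 genes called with time as a block became 1166 with voom, 350 without the time term, 244 with GC offsets, 106 with the GC slope as a covariate, 450 with depth and 62 with the Lars2 share as a covariate, and 1073 without the 3 mice of 9 months; the GC, depth, Lars2 and 3-mouse settings were chosen after seeing the data. DESeq2 size factors gave 693, DESeq2 itself 846, all 70 libraries together 645, dropping the filter on low counts 615, a floor of 1 on mean CPM 659, the mean of 3 contrasts 702, 1 day and 3 months alone 676, 1 surrogate variable 877, and GC offsets without the 3 mice 480.

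At 1 day the 0 calls became 17 with DESeq2, 207 with voom, 7 with no filter, 2 with all 70 libraries, 125 with each time fitted alone, 160 without the 3 mice and 24 with GC offsets as well. At 3 months the 5 became 33 with DESeq2, 84 with voom, 3 with all 70 libraries, 68 alone, 2 with GC offsets, 18 with the GC slope, 3 with depth, 118 without the 3 mice and 74 with GC offsets as well. At 9 months the 26 became 119 with DESeq2, 10 with voom, 78 with all 70 libraries, 0 alone, 3 with GC offsets, 0 with the GC slope, 0 with the Lars2 share and 7 with GC offsets without the 3 mice. The genotype by time count was 0 in each setting run.

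Slc26a4 was -1.27 without the time term (adjusted p = 0.112) and -1.84 with the Lars2 share (adjusted p = 0.0801), and it passed in the other 49 of 51 settings. The 52 list members called became 93 with voom, 27 without the time term, 24 with GC offsets, 18 with the GC slope, 8 with the Lars2 share and 100 without the 3 mice. The 3 chromosome 12 neighbours became 6 with voom, 1 without the time term and 0 with GC offsets, the GC slope or the Lars2 share. With the Lars2 share the blocked values of Mir6236 and Pcbp2, which did not pass, turned to 0.10 and 0.027. Their causes were not tested.

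Leaving out 1 mouse gave 511 to 996 calls with time as a block, 0 to 25 at 1 day, 0 to 21 at 3 months, 0 to 262 at 9 months, 38 to 90 list members (90 without wildtype 9-month mouse 5), 2 to 5 neighbours and -2.30 to -1.26 for Slc26a4 (-1.26 without wildtype 9-month mouse 5). Of 99 named genes called, 77 lost no call this way. Low depth limits genes near 1 CPM, where 1 library holds few counts.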
